A study of Mus musculus with 21 samples.

Results

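The enzymes that build purine and pyrimidine nucleotides from small precursors were followed through 4 tables of RNA-seq values from Ba/F3 cells expressing JAK2-V617F. The 10 genes were a fixed list of that pathway, Cad, Dhodh, Umps and Ctps of the pyrimidine route and Ppat, Gart, Pfas, Paics, Atic and Impdh2 of the purine route. All 10 were held by every table, out of 11670 genes in the CHZ868 6 h table, 11868 in the ruxolitinib 6 h table, 11355 in the CHZ868 washout table and 13085 in the ruxolitinib washout table, and 9973 genes were common to the 4 tables. They were chosen by function, though with earlier results of these data known. Every table lists only genes that passed the authors' filter on low expression. Members were taken from the rows that the 4 tables hold, so their presence in each follows from the choice.

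Ba/F3 is an immortal mouse line labelled as interleukin-3 dependent pro-B, and here it expressed the JAK2-V617F kinase of myeloproliferative neoplasms. All 21 libraries came from this 1 line, so the groups share a genotype and differ by inhibitor, time and experiment. DMSO_treated, CHZ_treated and Ruxo_treated cells were kept for 6 h with solvent, with 1 μM CHZ868 (a type II JAK2 inhibitor) or with 1 μM ruxolitinib (a type I JAK1/JAK2 inhibitor). CHZ_wash and Ruxo_wash cells had 1 h with the same dose, were washed 3 times in PBS and stood 6 h in medium free of inhibitor, and each had its own solvent group, DMSO_wash_exp3 for CHZ868 and DMSO_wash for ruxolitinib. Each of the 7 groups had 3 libraries, and the labels do not say whether these were separate cultures, so the p-values measure the spread between libraries, which may be technical. In bulk RNA, fewer cells of a kind and less RNA per cell cannot be told apart. The series asked which genes respond while JAK2 is inhibited and which respond once the inhibitor has left, and the comparisons below put that question to the nucleotide enzymes.

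In the 3 tables whose values resolve into whole reads, 7880220 to 10673060 reads per library were on the listed genes, and a member had between 91 and 4593 reads in a library. The depth of the ruxolitinib washout libraries is unknown. Of 14 pro-B markers each table held 2, Cd79a and Cd79b, at a summed level between 21.4 and 44.8 CPM. Of 7 markers of the interleukin-3 dependent state each held 5 (Il3ra, Csf2rb, Csf2rb2, Ptprc and Spi1). Their sum was 387 to 492 CPM in the ruxolitinib washout table and 1730 to 3490 CPM in the others. Summed erythroid markers were above summed pro-B ones in every table, though over more genes. The ruxolitinib washout table held 7 of 9 (Hbb-bs, Hbb-bt, Hba-a1, Hba-a2, Klf1, Epor and Tfrc), which summed to 3670 to 4250 CPM. Each other table held 4 of 9 (Hba-a1, Klf1, Epor and Tfrc), at 601 to 1570 CPM. Single markers were not compared, so these sums do not name a cell type. T cell markers were limited to Lck, 1 of 9 in each table. CHZ_treated libraries held 5.14 to 6.65% of transcripts from the mitochondrial genome against 1.43 to 1.49% in DMSO_treated libraries. Ruxo_treated replicate 2 (3.69% against 1.78 and 1.81%) and DMSO_wash_exp3 replicate 3 (5.56% against 2.97 and 2.37%) stood apart from the rest of their groups, and values without them are given beside the members' results they touch.

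De novo synthesis makes the bases step by step. In the pyrimidine route Cad, Dhodh and Umps lead from glutamine and aspartate to UMP, and Ctps converts UTP to CTP. In the purine route Ppat commits phosphoribosyl pyrophosphate, Gart, Pfas, Paics and Atic assemble inosine monophosphate on it, and Impdh2 turns that product toward guanine nucleotides. Proliferating blood cells depend on both routes, which are targets of antimetabolite drugs, and many of the genes are textbook targets of MYC, which binds the E-box.

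The genes lie apart in the genome except for a single pair. Positions are those of GENCODE M21 on GRCm38. Cad spans chromosome 5 from 31054780 to 31078479 on the plus strand, Dhodh chromosome 8 from 109591343 to 109608673 on the minus strand, Umps chromosome 16 from 33954782 to 33967038 on the minus strand, and Ctps chromosome 4 from 120539868 to 120570276 on the minus strand. Gart spans chromosome 16 from 91621186 to 91646952 on the minus strand, Pfas chromosome 11 from 68985697 to 69008460 on the minus strand, Atic chromosome 1 from 71557150 to 71579631 on the plus strand, and Impdh2 chromosome 9 from 108560286 to 108565584 on the plus strand. Ppat (chromosome 5, 76913249 to 76951578, minus strand) and Paics (chromosome 5, 76951307 to 76967509, plus strand) start head to head, and 272 exonic bases belong to both, 6.15% of those of Ppat and 8.67% of those of Paics. The library kit marks strand, but no source used here says that the counting used it, so reads from these bases may have gone to either gene.

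RefSeq promoter windows on GRCm38.p6, from 250 bases before to 50 bases after a start site, were matched for 8 of the 10 genes, all but Dhodh and Pfas. The E-box CACGTG, which reads the same on both strands, was found in 3 of the 8, those of Paics, Atic and Impdh2, where 7.15% of all 32851 windows hold it. The motif TTCNNNGAA, the letters that STAT5 dimers prefer, also the same on both strands, was found in the Paics window alone, against 8.3% of all windows. The 3 stretches around the E-box are shown because none of these 3 genes was called lower after CHZ868, with the motif in capitals and the direction of the gene kept. Umps and Ppat were not called lower either, and their windows hold neither motif. The window of Cad, which was called lower, also holds neither. A link between motif and response was not tested. The motif starts 203 bases before the start site in Paics, 7 bases before it in Atic and 110 bases before it in Impdh2. The upstream part of the Paics window meets an exon of Ppat. The start sites are those of RefSeq. GENCODE starts Impdh2 at 108560286, so its stretch lies within the annotated gene, and Atic at 71557150, inside its stretch. The upstream part of each of these windows meets an exon of the gene itself.
Paics E-box, chr5:76951087-76951116, plus strand: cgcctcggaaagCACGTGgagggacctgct
Atic E-box, chr1:71557137-71557166, plus strand: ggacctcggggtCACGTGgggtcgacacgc
Impdh2 E-box, chr9:108560314-108560343, plus strand: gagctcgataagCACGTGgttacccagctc

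For comparison, the 250 bases before the start sites of Gart and Ctps, a purine and a pyrimidine gene that were both lower after CHZ868, hold neither the E-box nor TTCNNNGAA. They are shown because these are the called genes whose windows meet no annotated exon. Capitals mark the GC box GGGCGG on either strand (CCGCCC on the other), found once in each and in 32.7% of all windows of this length. RefSeq gives Ctps a second start site, whose upstream window (chr4:120569460-120569709, minus strand) also meets no exon, holds none of the 3 motifs and is not printed.
Gart upstream, chr16:91646973-91647222, minus strand: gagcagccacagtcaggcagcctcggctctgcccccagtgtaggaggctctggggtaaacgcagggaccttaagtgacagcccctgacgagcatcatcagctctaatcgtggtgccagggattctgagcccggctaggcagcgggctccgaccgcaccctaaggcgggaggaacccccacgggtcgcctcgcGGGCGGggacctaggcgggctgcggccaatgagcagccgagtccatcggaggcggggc
Ctps upstream, chr4:120570277-120570526, minus strand: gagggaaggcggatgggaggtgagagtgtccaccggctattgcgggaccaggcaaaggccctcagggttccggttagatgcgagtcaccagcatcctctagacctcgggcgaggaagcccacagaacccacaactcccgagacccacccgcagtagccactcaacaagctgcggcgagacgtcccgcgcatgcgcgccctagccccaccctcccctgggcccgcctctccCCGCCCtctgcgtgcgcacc
A match or its absence in these windows describes letters only.

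CHZ868 present for 6 h lowered 5 of the 10 genes, Cad, Dhodh, Ctps, Gart and Pfas, to between 42.0 and 59.6% of the DMSO level, and raised 1, Paics. Umps, Ppat, Atic and Impdh2 did not pass the test. Differences are CHZ_treated minus DMSO_treated on the log2 CPM scale (CPM are read counts scaled to a common library total), tested by limma-trend at a threshold of 0.05 on the p-value adjusted over the table's 11670 genes (Benjamini-Hochberg). By that rule 26.4% of all genes were called lower and 26.8% higher, against 5 and 1 of the 10. The median difference over the 10 was -0.44, and over all genes it was -0.008.

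Within the pyrimidine route, Cad, the multifunctional enzyme of the first steps, had 7.99, 7.98 and 7.94 log2 CPM in the DMSO_treated libraries and 6.84, 7.05 and 7.20 in the CHZ_treated libraries. All CHZ_treated libraries were below all controls. The difference was -0.94 (SE 0.0791, adjusted p = 1.45e-07), to 52.3% of control. Dhodh, the mitochondrial enzyme that oxidises dihydroorotate, had 4.43, 4.70 and 4.51 log2 CPM with solvent and 3.67, 3.98 and 3.53 with CHZ868. It was the member with the fewest reads, 187 to 263 per control library, and its groups did not overlap. It fell by 0.82 on the log2 scale (SE 0.16, adjusted p = 0.000544). Ctps, the CTP synthase, had 6.42, 6.43 and 6.40 log2 CPM in controls and 5.52, 5.71 and 5.79 with CHZ868, again with a gap between groups. It fell by 0.75 (SE 0.0865, adjusted p = 4.19e-06). Umps, which forms UMP from orotate, was the exception in this route, at 6.60, 6.57 and 6.62 log2 CPM against 6.52, 6.56 and 6.55. The groups did not overlap, yet the difference of -0.05 did not pass the test (95% confidence interval -0.20 to 0.09, adjusted p = 0.524).

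The purine route split into genes that fell, a gene that rose and genes that passed in neither direction. Pfas, the amidotransferase of the route's middle part, had the lowest fitted difference of the 10. Its control libraries had 7.17, 7.09 and 7.09 log2 CPM and its CHZ_treated libraries 5.59, 5.97 and 6.04. Every treated library was more than 1 log2 unit below every control, and the difference was -1.25 (SE 0.101, adjusted p = 8.16e-08), to 42.0% of control. Gart, which carries several of the early purine steps in 1 protein, went from 7.37, 7.42 and 7.34 log2 CPM to 6.36, 6.52 and 6.36, a fall of 0.97 (SE 0.0695, adjusted p = 2.43e-08). The treated libraries of Gart lay close together and well below the controls.

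Paics, the enzyme that follows in the same chain, moved the other way. Its DMSO_treated libraries had 8.35, 8.37 and 8.34 log2 CPM and its CHZ_treated libraries 8.83, 8.74 and 8.82, with no overlap. The rise was 0.44 (SE 0.054, adjusted p = 7.21e-06), to 136% of control. Ppat, the amidophosphoribosyltransferase that shares its start region with Paics, had 6.75, 6.83 and 6.79 log2 CPM against 6.67, 6.81 and 6.72, and the groups overlapped. Its difference was -0.06 (95% confidence interval -0.20 to 0.09, adjusted p = 0.515). The distance from Ppat to Paics on the log2 scale was 1.54 to 1.60 in the control libraries and 1.93 to 2.16 in the treated ones.

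Atic, which closes the purine ring, had 7.66, 7.69 and 7.64 log2 CPM in controls and 7.71, 7.86 and 7.74 with CHZ868. All treated libraries were the higher ones, by 0.11 on average (adjusted p = 0.151), which missed the threshold, and by 0.06 without CHZ_treated replicate 2. Impdh2, the inosine monophosphate dehydrogenase of dividing cells, had 8.45, 8.47 and 8.35 log2 CPM against 8.32, 8.38 and 8.14, with overlap, and a difference of -0.14 (adjusted p = 0.0887). Impdh2 was called lower without CHZ_treated replicate 2 (-0.19, adjusted p = 0.0432) and after quantile normalization (-0.30, adjusted p = 0.000844), and was at -0.07 without CHZ_treated replicate 3 (adjusted p = 0.266). Of the 31-base stretches of its transcript, 78.3% also occur in transcripts of other genes, nearly all in the pseudogene Impdh2-ps, so its reads may have been split. Impdh2-ps itself was lower by 0.60 in CHZ_treated libraries, with no overlap.

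**Figure D1:**
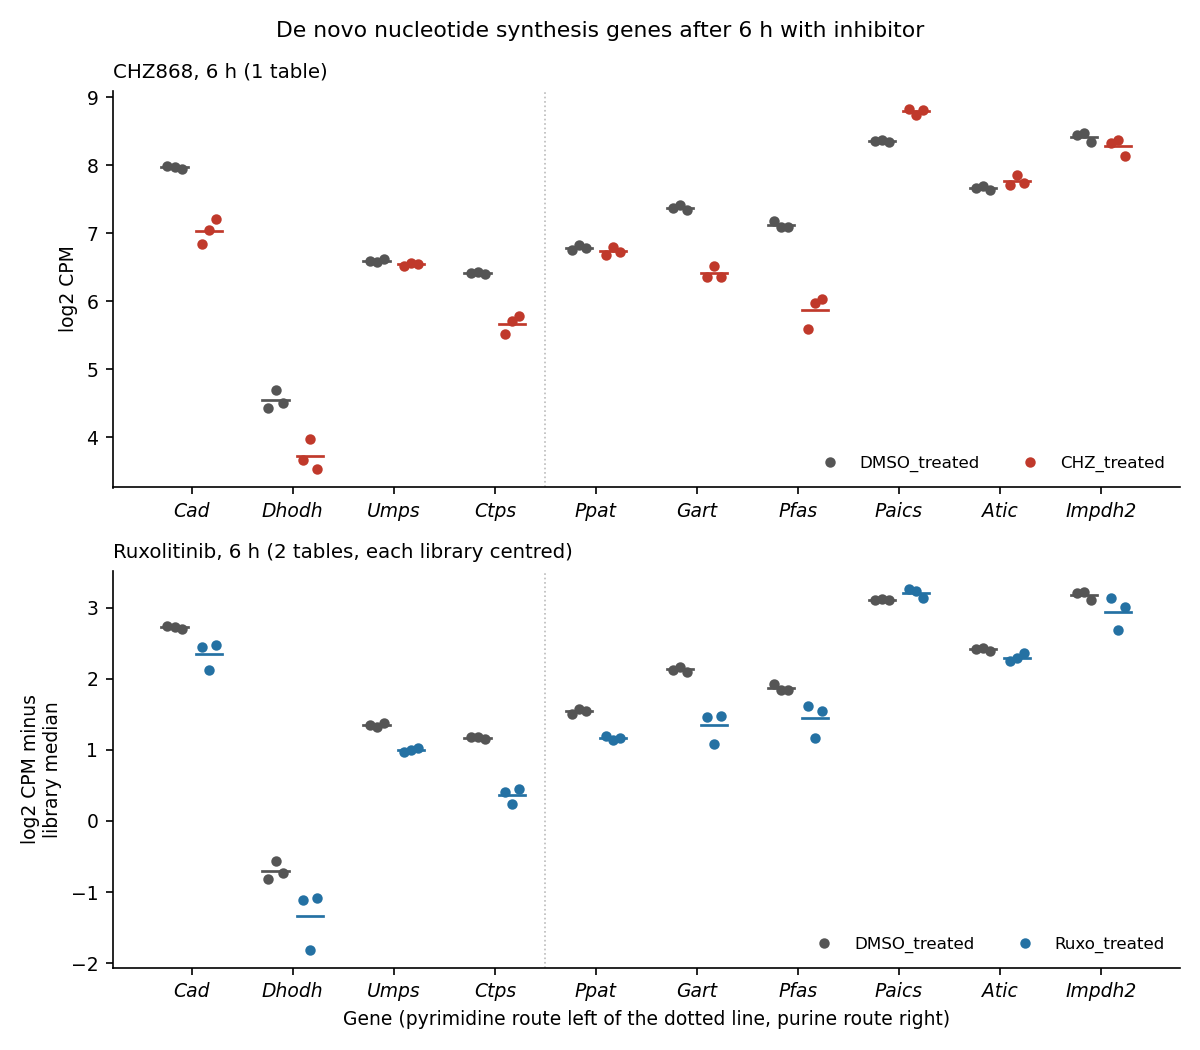
Level of each of the 10 genes in every library after 6 h, one point per library and a bar for the mean of 3: log2 CPM for DMSO_treated and CHZ_treated cells (top) and log2 CPM minus the library median for DMSO_treated and Ruxo_treated cells (bottom). With CHZ868 the points of Cad, Dhodh, Ctps, Gart and Pfas lie below the controls and those of Paics above, and with ruxolitinib 8 genes lie below, 1 above, and Impdh2 overlaps.

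Among other genes that share transcripts with a member, the antisense gene Gm15964 overlaps 1014 exonic bases of Gart, 19.7% of them. Gm15964 had 5.51, 5.45 and 5.44 log2 CPM in DMSO_treated libraries and 4.25, 4.53 and 4.25 in CHZ_treated libraries. It stayed 1.86 to 2.17 log2 units below Gart in each library of the 6 h tables, but 5.79 to 6.34 units below it in those of the ruxolitinib washout table. Whether reads of Gart were counted for Gm15964 was not tested. For Umps, the antisense Gm15829 covers 6.11% of the exonic bases and had a difference of -0.31 with overlapping groups. Of the 31-base stretches of the Paics transcript, 21.9% (538 of 2452) also occur in transcripts of 9 other genes. Ppat, on the opposite strand, shares the most of them, 242. For Ctps 9.2% are shared (246 of 2675), with 230 of them in Gm16465 on the same strand. Whether reads of Paics or Ctps were counted for these genes, or the reverse, was not tested. Cad and Dhodh share no 31-base stretch with another gene's transcript.

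The share of mitochondrial-genome transcripts rose with the same contrast in all 3 CHZ_treated libraries, so it and the treatment cannot be told apart here. The transcripts of the members come from nuclear genes, and the 3 treated libraries with 5.14 to 6.65% of mitochondrial transcripts were those in which the 5 genes were low.

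Ruxolitinib at the same dose and time gave 8 genes below the controls, 1 above and 1 that overlapped. Ruxo_treated and DMSO_treated libraries stand in tables normalized separately, so the median over the 11624 genes common to both was subtracted from every library. These differences are descriptions without a test, and a gene is counted where the groups do not overlap. By that count 20.1% of all genes were lower and 24.6% higher. The median difference over the 10 was -0.37, and over all genes it was 0.035. The DMSO_treated libraries are the controls of both inhibitors, so the 6 h values of CHZ868 and ruxolitinib are not independent and stand here side by side.

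Ctps had the lowest difference with ruxolitinib, at 1.17, 1.18 and 1.16 above the library median in controls and 0.40, 0.24 and 0.45 with the inhibitor, a difference of -0.81. This is beside -0.75 with CHZ868. Gart had 2.12, 2.17 and 2.10 in controls and 1.46, 1.08 and 1.48 with ruxolitinib, a difference of -0.79 beside -0.97 with CHZ868. In both genes every treated library was well below every control. Dhodh had -0.81, -0.56 and -0.74 in controls and -1.11, -1.81 and -1.08 with ruxolitinib, a difference of -0.63 beside -0.82 with CHZ868. The second Ruxo_treated library of Dhodh was far below the other pair, and without it the difference was -0.39.

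Cad and Pfas were also below their controls with ruxolitinib. Cad had 2.74, 2.72 and 2.70 above the library median in controls and 2.45, 2.12 and 2.48 with ruxolitinib, a difference of -0.37 beside -0.94. Pfas had 1.93, 1.84 and 1.84 against 1.61, 1.17 and 1.55, a difference of -0.43 beside -1.25. The groups did not overlap for either gene. The difference between the inhibitors was not tested, since their libraries are in separate tables. Umps (-0.35) and Ppat (-0.38) were lower in each ruxolitinib library than in each control, beside -0.05 and -0.06 with CHZ868. The Umps libraries had 0.97, 0.99 and 1.02 with ruxolitinib against 1.35, 1.32 and 1.37 with solvent, a narrow spread in both groups.

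Paics was the sole gene above its controls, at 3.26, 3.24 and 3.13 against 3.11, 3.12 and 3.10, a difference of 0.10. The lowest treated library cleared the controls by little, and after quantile normalization the groups overlapped. Atic was 0.12 lower than control with ruxolitinib (difference -0.12), where with CHZ868 it had been 0.11 higher. Impdh2 had a difference of -0.23 with overlapping groups, and of -0.10 without Ruxo_treated replicate 2.

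Ruxo_treated replicate 2, the library with more mitochondrial transcripts, was lower than the mean of its group's other 2 libraries by 0.75 in Dhodh, 0.45 in Pfas, 0.42 in Gart, 0.42 in Impdh2, 0.38 in Cad and 0.22 in Ctps, on the log2 scale. The remaining members deviated by at most 0.07 in either direction. Without this library the counts were again 8 below and 1 above, with differences of -0.74 for Ctps, -0.66 for Gart, -0.29 for Pfas and -0.26 for Cad. DMSO_wash_exp3 replicate 3, the other library of this kind, deviated by -0.49 in Impdh2, -0.39 in Pfas, -0.37 in Cad, -0.28 in Dhodh and -0.28 in Gart, with 0.10 for Ppat and 0.05 for Paics. The SD of this deviation over all genes was 0.377 and 0.371 for these 2 libraries. DMSO_wash_exp3 replicate 2, part of the mean that replicate 3 is set against, deviated the other way in several genes. It was at 0.39 in Cad, 0.35 in Pfas, 0.34 in Impdh2 and 0.26 in Gart, and at -0.04 in Ppat and in Paics (SD over all genes 0.305). The part of library quality in these deviations was not tested.

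**Figure D2:**
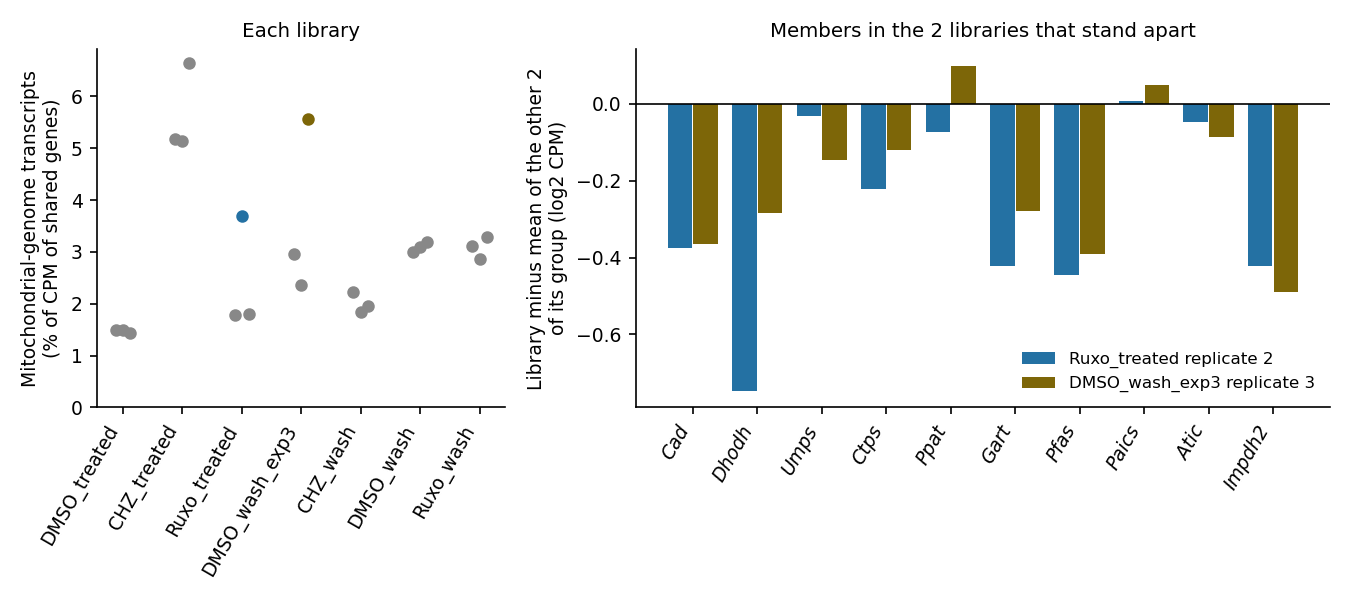
Left, percent of CPM from the mitochondrial genome in each of the 21 libraries, with the 2 libraries that stand apart in colour. Right, difference of those 2 libraries from the mean of the other 2 of their group, in log2 CPM, for each gene: Cad, Dhodh, Gart, Pfas and Impdh2 are low in both, while Paics stays within 0.05.

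Myc, whose protein binds the E-box, was read out in the same libraries. It had 8.54, 8.65 and 8.68 log2 CPM in DMSO_treated libraries and 8.47, 8.25 and 8.34 in CHZ_treated libraries, and fell by 0.27 (adjusted p = 0.00272). With ruxolitinib it had 7.24, 8.29 and 7.50 log2 CPM on the scale of its own table, and its centred difference was -0.97. The library with the highest Myc was replicate 2, in which Cad, Dhodh, Gart and Pfas were lowest. Myc also had the highest value of its group in DMSO_wash_exp3 replicate 3, at 9.86 against 9.31 and 9.08.

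Once CHZ868 had been removed for 6 h, none of the 10 genes was called in either direction by limma-trend, against 2.07% of all genes called lower and 1.96% higher. One gene, Pfas, had an unadjusted p below 0.05, as did 2767 of all 11355 genes. The median difference over the 10 was 0.020, and over all genes it was 0.005. Cad had 8.06, 7.99 and 8.01 log2 CPM in CHZ_wash libraries and 8.02, 8.30 and 7.79 in DMSO_wash_exp3 libraries, a difference of -0.02 (95% confidence interval -0.27 to 0.24). Gart had 8.08, 8.20 and 8.15 against 8.09, 8.25 and 7.89, a difference of 0.07. In both genes the controls spread more widely than the washed cells and enclosed them.

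Pfas, the gene with the deepest fall while CHZ868 was present, had 7.32, 7.18 and 7.08 log2 CPM in CHZ_wash libraries and 6.92, 7.13 and 6.63 in DMSO_wash_exp3 libraries. Its groups overlapped through the second control library. The difference was 0.30 (SE 0.124, adjusted p = 0.171), and Pfas was called higher only when DMSO_wash_exp3 replicate 2 was left out (0.41, adjusted p = 0.0378). Without replicate 3 of those controls it was 0.17 (adjusted p = 0.226). The other members had differences between -0.10 for Umps and 0.18 for Impdh2, with adjusted p from 0.412 to 0.963. The Impdh2 difference was 0.29 without DMSO_wash_exp3 replicate 2. Without DMSO_wash_exp3 replicate 3 it was 0.01, and Cad was at -0.14, Dhodh at -0.11, Gart at -0.02, Umps at -0.15 and Ctps at 0.07, none of them called. Paics had 8.28, 8.36 and 8.39 log2 CPM against 8.41, 8.39 and 8.45, which did not overlap, with a difference of -0.07 (adjusted p = 0.58).

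After ruxolitinib removal the 10 genes differed from their controls by -0.06 to 0.08. None was called by limma-trend, and of all genes 0.0229% were called lower and 0% higher. Over all genes, libraries of the same group differed from each other with an SD of 0.961 to 1.016 log2 units in this experiment. In the groups of the other experiments that SD was 0.22 to 0.43. How far this spread limits the share of genes called was not tested, and that share does not show that few genes responded. The spread is that of all genes. For the members the SE of the difference ran from 0.0288 (Paics) to 0.2142 (Dhodh). One member, Impdh2, had an unadjusted p below 0.05, as did 920 of all 13085 genes. Impdh2 had 8.72, 8.69 and 8.71 log2 CPM in Ruxo_wash libraries and 8.68, 8.59 and 8.60 in DMSO_wash libraries, all treated libraries being the higher ones, and differed by 0.08 (95% confidence interval 0.006 to 0.156, adjusted p = 0.688). Ctps had 6.06, 6.07 and 6.09 against 6.13, 6.17 and 6.09, a difference of -0.06 (95% confidence interval -0.16 to 0.05). Leaving Dhodh aside, the intervals of all members lay between -0.166 and 0.159. Dhodh varied most, at 5.35, 5.87 and 5.71 log2 CPM against 5.48, 6.08 and 5.41, and its interval ran from -0.53 to 0.51. Smaller changes of Dhodh were not detectable with this spread between libraries.

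**Figure D3:**
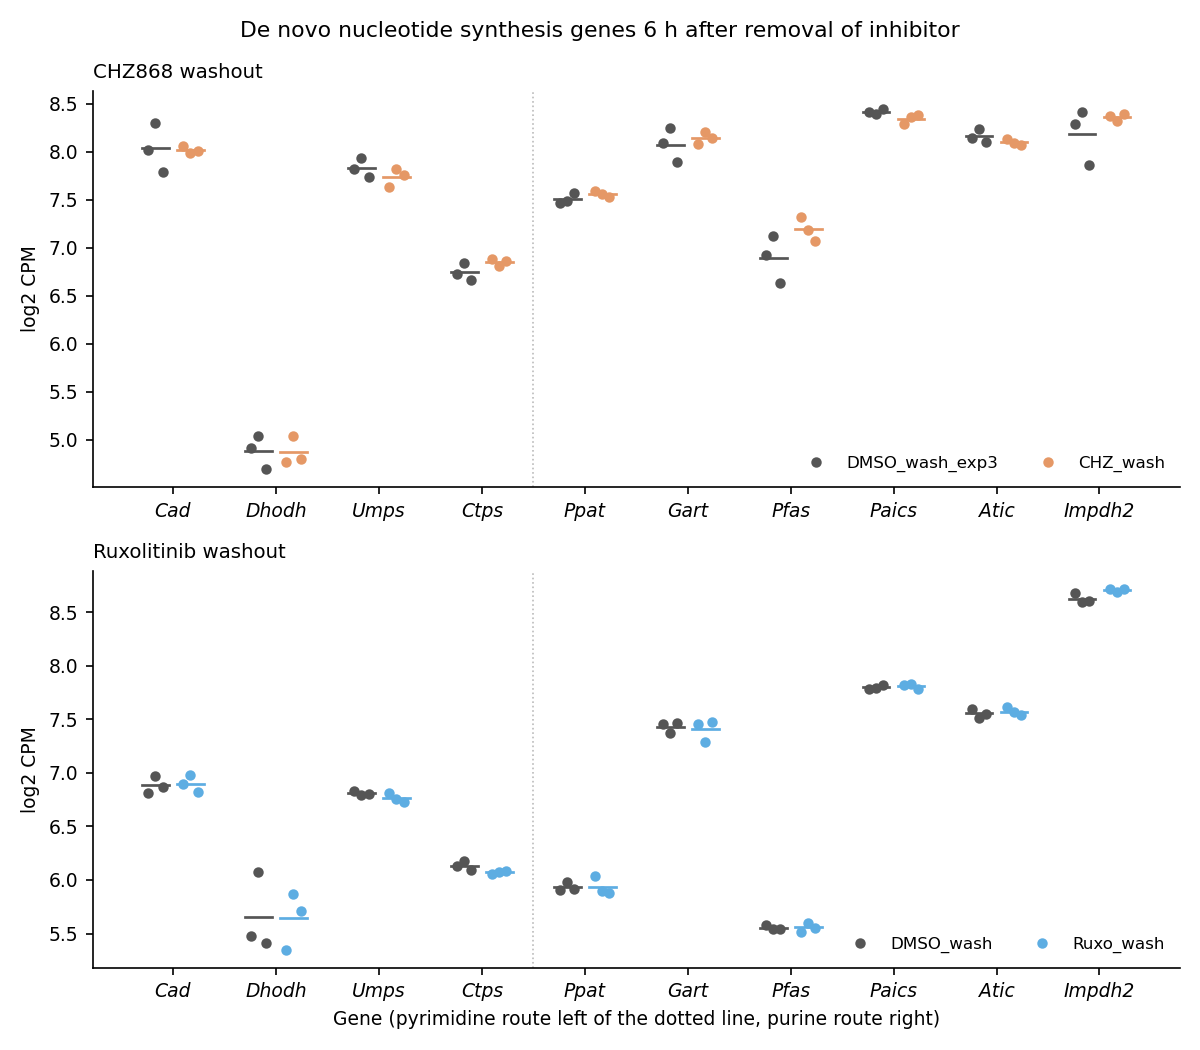
Level in log2 CPM of each gene in every library of the CHZ868 washout (top) and ruxolitinib washout (bottom) experiments, one point per library and a bar for the mean of 3. The inhibitor and solvent points intermingle for most genes, and levels are not comparable between the panels.

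No member was called for a difference between the washouts. The effect of ruxolitinib washout minus that of CHZ868 washout, fitted with limma-trend on 12 libraries over 10078 genes, was called for 0 of the 10, where 0.923% of all genes were called lower and 0.972% higher. No member had an unadjusted p below 0.05, which 1903 of all 10078 genes had. The widest difference was that of Pfas, at -0.29 (95% confidence interval -0.61 to 0.03, adjusted p = 0.303), followed by Ctps at -0.16 (-0.36 to 0.03, adjusted p = 0.351). Without DMSO_wash_exp3 replicate 3 the difference of Pfas was -0.16 (adjusted p = 0.428) and that of Ctps -0.12 (adjusted p = 0.409).

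The presence and the removal of CHZ868 were compared directly with 12 libraries over the 11175 genes of both CHZ868 tables. The 6 h effect differed from the washout effect in 6 of the 10 genes, 5 lower and 1 higher, against 23.8% of all genes lower and 23.2% higher. The difference was -1.55 for Pfas (SE 0.174, adjusted p = 2.96e-06), -1.04 for Gart (adjusted p = 4.75e-06), -0.92 for Cad (adjusted p = 0.000122), -0.85 for Ctps (adjusted p = 2.46e-05) and -0.81 for Dhodh (adjusted p = 0.00405). For Paics it was 0.52 (adjusted p = 0.000204). All 6 kept their call without DMSO_wash_exp3 replicate 3, where Pfas was at -1.42 and Cad at -0.80. Impdh2 was at -0.32 (adjusted p = 0.0975), and was called lower when DMSO_wash_exp3 replicate 2 was left out (-0.43, adjusted p = 0.0149). Without replicate 3 of the same group it was at -0.16 (adjusted p = 0.202). Umps, Ppat and Atic were at 0.04, -0.11 and 0.17 and were not called.

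**Figure D4:**
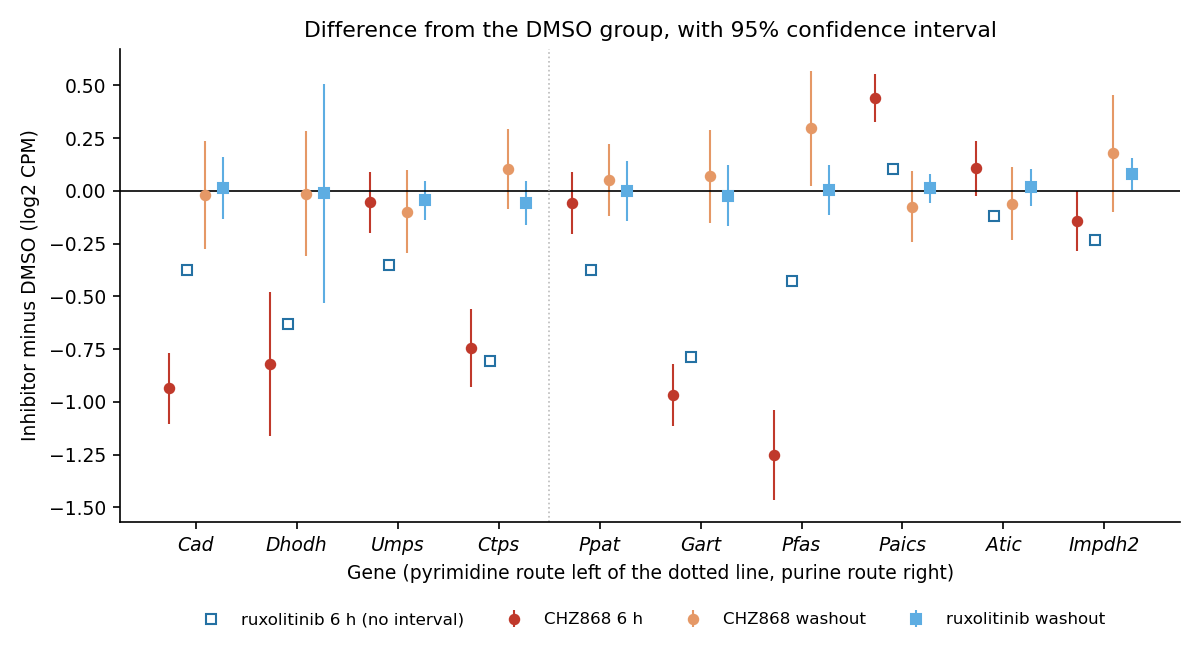
Inhibitor minus DMSO in log2 CPM for the 10 genes in 4 comparisons, with the 95% confidence interval of limma-trend where a test was run (open squares, ruxolitinib at 6 h, have none). Cad, Dhodh, Ctps, Gart and Pfas are below 0 with either inhibitor present and near 0 after washout, where the intervals of all but Pfas with CHZ868 and Impdh2 with ruxolitinib include 0.

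Further enzymes of the same routes were called about as often as all genes. Of 11 other de novo enzymes, 3 were called lower and 3 higher after CHZ868, with a median of -0.14. Of all genes 26.4% were called lower and 26.8% higher. Impdh1, the isoform of Impdh2, fell by 0.79 (adjusted p = 7.68e-05), Prpsap2, which associates with phosphoribosyl pyrophosphate synthetase, by 0.41 (adjusted p = 0.00885), and Adsl, the adenylosuccinate lyase that acts on both sides of inosine monophosphate, by 0.33 (adjusted p = 0.00169). Gmps, the GMP synthetase, rose by 0.27 (adjusted p = 0.00221), Adss, which leads toward AMP, by 0.20 (adjusted p = 0.0256) and Prps2, a phosphoribosyl pyrophosphate synthetase, by 0.20 (adjusted p = 0.0486). The groups overlapped for Adss. The call of Prps2 was lost under 8 of 15 alternatives, among them leaving out any DMSO_treated library or CHZ_treated replicate 2, and that of Adss under 7, among them leaving out DMSO_treated replicate 1 or 3 or CHZ_treated replicate 1 or 2. Prps1 (-0.01), Prps1l3 (-0.20), Prpsap1 (-0.19), Adssl1 (-0.14) and Ctps2 (0.17) did not pass. With ruxolitinib, Impdh1 (-0.46), Prps1l3 (-0.47), Adsl (-0.36), Prps1 (-0.22) and Prpsap2 (-0.20) were below their controls with no overlap, and Ctps2 (0.18) was above. By that count 20.1% of all genes were below and 24.6% above. None of the 11 was called in either washout by limma-trend, where 1 had an unadjusted p below 0.05 after CHZ868 (Adssl1, 0.27) and 2 after ruxolitinib (Ctps2, 0.37, and Adssl1, -0.34). Over all genes 2767 of 11355 had such a p after CHZ868 washout and 920 of 13085 after ruxolitinib washout.

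One-carbon metabolism, which supplies formyl groups to Gart and Atic, had 9 of its 12 measured genes called lower after CHZ868 and 1 higher, with a median of -0.40. Of all genes 26.4% were called lower and 26.8% higher. Mthfd2, the mitochondrial methylenetetrahydrofolate dehydrogenase, fell by 2.02 (adjusted p = 4.87e-11) and was -1.01 with ruxolitinib. Slc19a1, the reduced folate carrier, fell by 0.84 (adjusted p = 0.000247) and was -0.90 with ruxolitinib. After CHZ868 washout 0 of 11 measured genes were called by limma-trend, with an unadjusted p under 0.05 for 1, and after ruxolitinib washout 0 of 13, with 0 at that unadjusted p. Over all genes that unadjusted p was reached by 2767 of 11355 and by 920 of 13085.

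The genes that turn ribonucleotides into deoxynucleotides were split, 3 of 8 lower and 2 higher, with a median of 0.006. The shares over all genes were 26.4% lower and 26.8% higher. Dctd, the dCMP deaminase, fell by 1.19 (adjusted p = 2.65e-05), Samhd1, which hydrolyses dNTPs, by 0.74 (adjusted p = 1.03e-07) and Dtymk, the thymidylate kinase, by 0.48 (adjusted p = 0.000202). Rrm1, the large subunit of ribonucleotide reductase, rose by 1.02 (adjusted p = 4.16e-09), and Rrm2, its small subunit, by 0.25 (adjusted p = 0.00232), a call lost after quantile normalization. With ruxolitinib Dctd was at -1.44, Samhd1 at -1.01, Dtymk at -0.06 and Rrm1 at 0.53.

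Salvage recovers ready-made bases and nucleosides. Of 17 measured salvage genes 8 were lower and 6 higher after CHZ868, with a median of -0.29. For this list and the kinases and breakdown enzymes below, the shares over all genes were 26.4% lower and 26.8% higher. Slc29a2, an equilibrative nucleoside transporter, fell by 1.11 (adjusted p = 0.000948) and Tk2, the mitochondrial thymidine kinase, by 1.01 (adjusted p = 0.0195), while Slc29a3, a lysosomal nucleoside transporter, rose by 0.95 (adjusted p = 0.000542) and Upp1, the uridine phosphorylase, by 0.86 (adjusted p = 0.000132). Nucleotide kinases had 3 of 11 lower and 4 higher (median 0.28), among them Ak6 at -0.75, Ak4 at -0.23, Nme7 at 0.58, Ak1 at 0.50, Cmpk1 at 0.38 and Ak3 at 0.24, each past the threshold. Of the exonic bases of Ak6, 56.5% also belong to Taf9 on the same strand, so its reads may be those of Taf9. Breakdown enzymes had 5 of 13 lower and 4 higher (median 0.15), with Gda, the guanine deaminase, at -2.30, Entpd6 at -0.76, Xdh, the xanthine dehydrogenase, at -0.64, Itpa at -0.55 and Ampd2 at -0.34, and with Nt5c3b at 0.86, Ampd3, an AMP deaminase, at 0.83, Ada, the adenosine deaminase, at 0.71 and Nt5c2 at 0.41, each past the threshold. Rrm2, Ak3, Ak4, Xdh, Itpa, Ampd2, Ada and Nt5c2 were named after their values were seen, to fill in these counts. Several of these calls were lost when 1 library was left out: Tk2 without DMSO_treated replicate 1 or 3 or CHZ_treated replicate 3, Ak1 without DMSO_treated replicate 1 or 3 or CHZ_treated replicate 2 or 3, Ak6 without DMSO_treated replicate 1 or 2, Xdh without DMSO_treated replicate 1, and Ak4, Ada and Itpa without DMSO_treated replicate 2 or 3. The shares called lower or higher in each list stand in the plot by gene list beside those of all genes, and the lists were not tested against them.

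**Figure D5:**
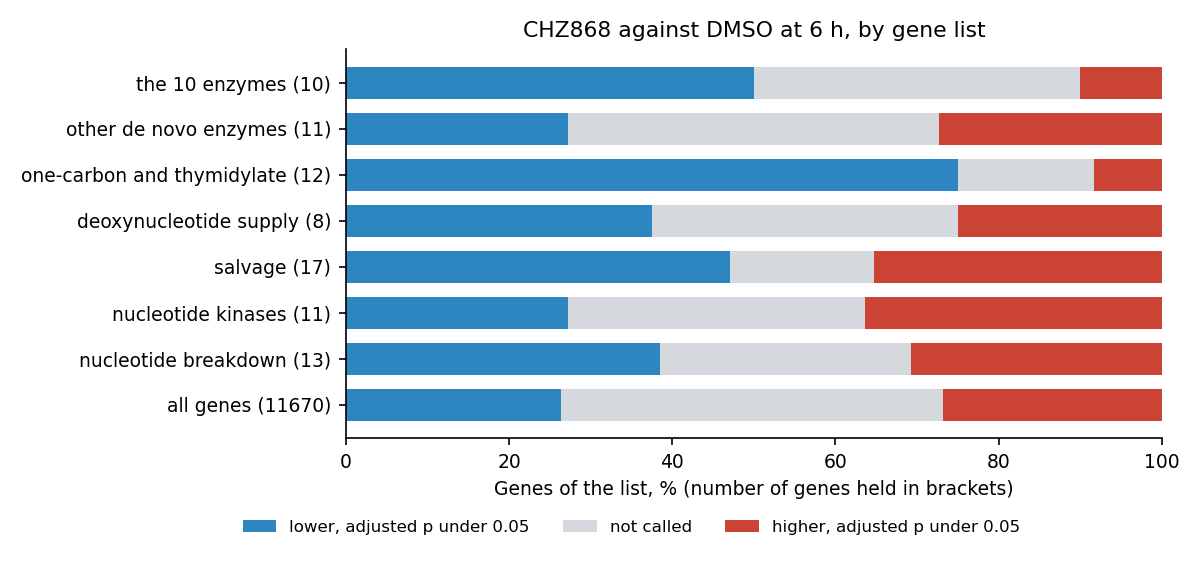
Percent of the measured genes of each list that were called lower, called higher or not called by limma-trend (adjusted p under 0.05) in CHZ868 against DMSO at 6 h, with the number of genes in brackets. One-carbon genes have 9 of 12 lower and the 10 enzymes 5 of 10, against 26.4% of all genes.

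The genes most like the 10 were found over 9963 others and 21 libraries, by Pearson r between a gene's deviation from its control mean and the mean deviation of the 10. They were Nxn (0.978), Gm15964 (0.976), Eif1ad (0.975), Wdr4 (0.973) and Ccnb1ip1 (0.972). The libraries share controls and tables, so these are descriptions. Wdr4, a subunit of a tRNA methyltransferase, fell by 1.59 with CHZ868 (adjusted p = 2.53e-06) and was -1.17 with ruxolitinib, and Ccnb1ip1, a cyclin-interacting ubiquitin ligase, fell by 1.84 (adjusted p = 3.53e-08) and was -1.40. The differences of the 5 lay between 0.009 and 0.44 after CHZ868 washout and between -0.06 and 0.13 after ruxolitinib washout, with adjusted p from 0.127 to 0.974 (limma-trend). Gm15964 is the antisense gene that overlaps Gart. Among the 10 themselves, by the same measure with each gene part of the mean, Gart (0.982) and Ctps (0.971) followed the mean most closely, Atic (0.009) hardly at all and Paics inversely (-0.815).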

How the data were processed

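RNA was sequenced from 21 libraries of Ba/F3 JAK2-V617F cells, 3 in each of 7 groups taken from the labels. The authors deposited 4 tables of normalized log2 CPM per gene symbol, filtered on low expression. The paper's methods name kallisto on GRCm38 with edgeR, TMM and voom, while the submitters' processing notes name STAR 2.7.3a, edgeR 4.0.16 and GRCm39, so which aligner and build made each table is not settled here. The tables hold no coordinates, and positions and sequences come from GENCODE M21 and RefSeq. In 3 tables the low values resolve into whole reads (100% within 0.1 read), which gives the depth.

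Each inhibitor was compared with its own DMSO group by limma-trend (limma 3.58.1, R 4.3.3) on the log2 values, since voom weights need counts, adjusted by Benjamini-Hochberg over all genes of the table (threshold 0.05). Contrasts between tables used the difference of within-table effects on 12 libraries. Ruxo_treated and DMSO_treated were only described. The fits were tested on simulated data. Alternatives were no trend, vooma weights, a replicate block, log2(CPM + 1), median centring, quantile normalization, leaving out each library, a threshold of 0.01, and testing only genes whose mean log2 CPM reached 1 or 3. Named are the 10 members, the other de novo enzymes, the 4 genes of each other list with the largest change past the threshold after CHZ868, Myc, and the 5 genes most like the members, beside those stated as added. Some genes that this rule or the list counts take in are not reported here by name. Members, lists and tests were chosen with earlier results of these data known. Other marker lists gave the following numbers of genes held per table: macrophage and neutrophil 1 to 5 of 10, erythroid 4 to 7 of 9, mast cell 0 or 1 of 7.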

Additional observations from a re-analysis of the deposited data

Results flagged for a closer look

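For 6 genes the effect of CHZ868 while present differed from the effect 6 h after its removal in a test of the difference itself (limma-trend, 12 libraries). The difference of effects was -0.92 for Cad, -0.81 for Dhodh, -0.85 for Ctps, -1.04 for Gart, -1.55 for Pfas and 0.52 for Paics, on the log2 scale. In the first 5 genes each 6 h library was below each control and the washed libraries overlapped theirs, and in Paics the 6 h libraries were above. The 2 experiments stand in separate tables with controls of their own, so the time of exposure and the experiment cannot be told apart. The share of mitochondrial-genome transcripts, 5.14 to 6.65% in CHZ_treated and 1.84 to 2.23% in CHZ_wash libraries, moved with the same contrast, and its part was not tested.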

How the results depend on the processing

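Each of the 6 members called at 6 h with CHZ868, and each of the 6 called for the 6 h against the washout effect, kept direction and call under each alternative and with each library left out. Of 57 other genes (the further gene lists, Myc and the 5 genes most like the members) called at 6 h with CHZ868, 41 kept their call under all of these settings that tested the gene, run on them after seeing the data, and 16 lost it under at least 1; for the 6 h against the washout effect 33 of 41 kept it. None of these reversed. In the washouts, genes near 0 changed sign when 1 library was left out. For CHZ868 washout the ranges were -0.14 to 0.11 for Cad, -0.11 to 0.0665 for Dhodh and -0.0238 to 0.16 for Gart. For ruxolitinib washout the ranges were -0.027 to 0.0563 for Cad, -0.13 to 0.20 for Dhodh, -0.0505 to 0.0288 for Ppat, -0.0559 to 0.0364 for Gart, -0.0186 to 0.0242 for Pfas and -0.0027 to 0.0377 for Atic. For the difference between washouts the ranges were -0.0984 to 0.15 for Cad, -0.12 to 0.21 for Dhodh, -0.001 to 0.10 for Umps, -0.18 to 0.0019 for Gart and -0.21 to 0.066 for Impdh2. For the 6 h against the washout effect of CHZ868 the range was -0.0101 to 0.0925 for Umps. Signs also turned for Ppat after ruxolitinib washout with median centring (0.0078), and with quantile normalization for Pfas after ruxolitinib washout (-0.0045) and Umps in the 6 h against the washout effect (-0.0476). None of these was called under any setting, and the cause was not tested. The number of members called higher after CHZ868 washout ranged from 0 to 1 as each library was left out in turn, and with quantile normalization 0 members, in place of 1, were above their controls with ruxolitinib at 6 h. The number below their controls with ruxolitinib at 6 h, 8 in the main setting, was 8 to 9 with a library left out. Under the other alternatives it was 7 to 8. Over all genes, 457 were called after CHZ868 washout, between 0 (without CHZ_wash replicate 1) and 1426 (without DMSO_wash_exp3 replicate 3) with a library left out, and 0 by limma without the trend. The difference between washouts was called for 191 genes, between 5 (without CHZ_wash replicate 3) and 628 (without DMSO_wash_exp3 replicate 2), and ruxolitinib washout for 3, 0 to 1 with a library left out, and 9 by limma without the trend. Replicate numbers are shared between groups. Same-numbered libraries deviated together with r of -0.054 to 0.051, and differently numbered ones with r of -0.087 to 0.087. With 3 libraries per group these values cannot settle whether a number stands for a shared culture or handling, and the labels do not say. With a replicate block 5 members were called lower and 1 higher at 6 h with CHZ868, 0 in either washout and 6 for the 6 h against the washout effect, the counts without it, while over all genes 539 were called after CHZ868 washout and 6 for the difference between washouts. Depth limits Dhodh most, with 91 to 126 reads in CHZ_treated libraries.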

Other observations

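In the salvage list 1 of 17 measured genes was called after CHZ868 washout, Pnp, the purine nucleoside phosphorylase, higher by 0.58 (adjusted p = 0.0437, limma-trend), named after its value was seen. That call was lost under 6 of 15 alternatives: limma without the trend, a threshold of 0.01, and leaving out CHZ_wash replicate 1, 2 or 3 or DMSO_wash_exp3 replicate 1, with differences from 0.48 to 0.67 as each library was left out. At 6 h with CHZ868 Pnp was at -0.04 (adjusted p = 0.851). Myc was lower by 0.53 in CHZ_wash than in DMSO_wash_exp3 libraries with no overlap (adjusted p = 0.078), and at -0.02 after ruxolitinib washout (adjusted p = 0.937, limma-trend). Its levels were 8.89, 8.86 and 8.90 log2 CPM in CHZ_wash and 9.31, 9.08 and 9.86 in DMSO_wash_exp3. The highest of these is replicate 3, the library set apart by its mitochondrial share. Adssl1 had 0.27 after CHZ868 washout and -0.34 after ruxolitinib washout, a difference of -0.61 (adjusted p = 0.0614). Ak6 was the sole gene of the nucleotide kinase list called for the difference between washouts, at -0.51 (adjusted p = 0.047), with the overlap with Taf9 given above, and the call was lost under 15 of 21 alternatives, among them leaving out any library except DMSO_wash_exp3 replicates 2 and 3.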
